A study of Mus musculus with 4 samples.

Results

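Immune checkpoint genes encode receptors that raise or lower the activity of T cells, and the ligands that engage them. The 10 genes described here were chosen by name out of the 27998 genes shared by the 4 libraries. They are 6 receptor genes (Pdcd1, Lag3, Havcr2, Tigit, Ctla4 and Icos), the nuclear factor gene Tox, and 3 ligand genes (Cd274, Pdcd1lg2 and Lgals9). All 10 symbols were found once in each library.

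Pdcd1 encodes PD-1, an inhibitory receptor that appears on T cells after antigen contact, and Cd274 (PD-L1) and Pdcd1lg2 (PD-L2) encode its ligands. Ctla4 competes with the co-stimulatory receptor CD28 for CD80 and CD86 and is abundant in regulatory T cells, whereas Icos is a co-stimulatory relative of CD28. Lag3 encodes an inhibitory receptor for MHC class II, Havcr2 encodes TIM-3, for which galectin-9 (the product of Lgals9) is one described ligand, and Tigit binds the poliovirus receptor family. Tox is a DNA-binding protein known for its part in T cell exhaustion, the state of reduced function that follows long stimulation. In mammary tumours these receptors are mostly studied on infiltrating lymphocytes, and the PD-1 ligands on both tumour cells and myeloid cells.

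The libraries came from female mice of mixed genetic background with floxed Trp53 and Brca1 alleles (Trp53L/L;Brca1L/L) and a Rosa26 YFP reporter (R26Y), in which Ad-K8-Cre, an adenovirus that expresses Cre from a keratin 8 promoter, had been injected into the milk ducts. All libraries share these alleles and this virus, and no library from uninjected or Trp53- and Brca1-intact mice was used here. The 5 months library held sorted YFP+ mammary epithelial cells together with CD45+ leukocytes about 5 months after injection. Tumour 1 and tumour 2 held live DAPI-negative cells of 2 tumours, and a library of sorted YFP+ cells from about 2 weeks after injection was used for the ligands of epithelial cells alone. Leukocytes were therefore selected by sorting at 5 months and not in the tumours, so shares of cells were not compared between them. The age of the mice, the number of mice per library and the proportion in which epithelial cells and leukocytes were mixed were not given in the labels, and only the tumours are replicates (n = 2).

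After filtering, 4487 cells remained at 5 months, 2583 in tumour 1, 1740 in tumour 2 and 1286 at 2 weeks, with median totals of 2140, 6974, 6396.5 and 4134.5 UMIs (unique molecular identifiers, each counting 1 captured RNA molecule). Between 2 and 16 barcode sequences were shared by any pair of libraries. T barcodes were defined by at least 1 UMI of Cd3e, which encodes a chain of the T cell receptor complex, and at most 2 of Lyz2, a myeloid lysozyme gene. This gave 1303 barcodes at 5 months, 17 in tumour 1 and 119 in tumour 2. Keratin barcodes held at least 3 UMIs of Krt8 and Krt18 together and fewer than 3 of Tyrobp (451, 345 and 391 barcodes, and 1120 at 2 weeks). Tyrobp barcodes, defined by at least 3 UMIs of this myeloid and natural killer adaptor gene and fewer than 3 of the keratins, numbered 750, 1888 and 721. Levels are in CPM, the UMIs of a gene for each 1000000 UMIs summed over the barcodes of a class in a library, with 95% Poisson intervals that cover counting error only.

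All 8 T cell markers were detected in the T barcodes of all 3 libraries, with summed levels of 3027, 2908 and 2871 CPM at 5 months and in tumours 1 and 2. Cd3e, which defines the class, is among the 8, so its detection and its part of the sums were fixed in advance. The macrophage or monocyte list below likewise includes Lyz2, which the definition limits to 2 UMIs per barcode. Other cell types were also represented in the T barcodes. Plasma cell markers summed to 4846, 61.2 and 2854 CPM, macrophage or monocyte markers to 319.8, 734.6 and 650.6 CPM, epithelial markers to 575.7, 367.3 and 142.3 CPM, and neutrophil markers to 30.5, 112.2 and 489.8 CPM, in the same order. Fewer cells that express a gene and less RNA per cell cannot be told apart in these sums. The part of RNA from other cells in the values below was not tested, except where counts without such barcodes are given.

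The 10 genes lie at 8 places in the mouse genome (GRCm38, GENCODE M21). Ctla4 (chr1:60887000-60915832) and Icos (chr1:60977927-61000320) are neighbours on the plus strand with 62094 bases between them, and Cd274 (chr19:29367455-29388095) and Pdcd1lg2 (chr19:29410919-29471161) are neighbours on the plus strand with 22823 bases between them. Pdcd1 lies at chr1:94038305-94052553, and Lag3 lies at chr6:124904361-124911705, 16139 bases from Cd4, both on the minus strand. Havcr2 lies at chr11:46454935-46481255, Tigit at chr16:43648867-43664146, Tox at chr4:6686353-6991557 and Lgals9 at chr11:78962974-78984946. Antisense genes overlap the exons of Cd274 by 511 bases (AC119228.1) and those of Tox by 260 bases (Gm11802). The labels do not say whether the counting used strand, so reads of these pairs may not be told apart.

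The 3 ligand genes are compared between epithelial and myeloid classes below, so the 250 bases before their RefSeq start sites (GRCm38.p6) are shown, written 5′ to 3′ along the gene. The promoter table held 7 of the 10 genes. Capitals mark matches on either strand to an interferon regulatory factor motif (GAAA, any 2 bases, GAAA), to GGAAAA (NFAT) or to TGANTCA (AP-1). The motifs TTCNNNGAA (GAS), TATAAA (the TATA box) and GGGA, any 4 bases, CC (NF-kB) were also searched and are not marked, and no marked match overlapped another match.
Cd274, chr19:29367188-29367437, plus strand: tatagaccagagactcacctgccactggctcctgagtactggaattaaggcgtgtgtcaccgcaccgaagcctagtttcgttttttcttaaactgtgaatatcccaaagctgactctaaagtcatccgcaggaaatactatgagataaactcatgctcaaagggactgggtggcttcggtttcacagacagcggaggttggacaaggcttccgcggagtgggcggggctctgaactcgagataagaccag
Pdcd1lg2, chr19:29410669-29410918, plus strand: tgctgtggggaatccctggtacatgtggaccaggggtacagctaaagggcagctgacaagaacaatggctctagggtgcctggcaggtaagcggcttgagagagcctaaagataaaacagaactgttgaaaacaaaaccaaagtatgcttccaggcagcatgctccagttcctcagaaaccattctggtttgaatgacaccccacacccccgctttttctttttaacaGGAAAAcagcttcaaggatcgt
Lgals9, chr11:78984925-78985174, minus strand: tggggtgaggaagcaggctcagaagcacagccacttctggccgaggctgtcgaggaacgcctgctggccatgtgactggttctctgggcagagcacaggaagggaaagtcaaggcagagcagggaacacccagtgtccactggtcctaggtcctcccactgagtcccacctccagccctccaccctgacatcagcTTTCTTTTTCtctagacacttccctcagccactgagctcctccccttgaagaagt
The Lgals9 window held 1 match to the interferon regulatory factor letters, which begins 55 bases before the start, and 2.98% of 32851 mouse promoters of the same length held at least 1. Pdcd1lg2 held 1 match to the NFAT letters, as did 20.4% of promoters. The Cd274 window held no match to any of the 6 sets of letters, and Pdcd1lg2 and Lgals9 each also held 1 NF-kB match (17.6% of promoters). A match is a description of letters and was not tied to binding of a factor.

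The plot of where the UMIs lie gives the share of each gene's UMIs by class in each library. At 5 months, T barcodes held 71.1% of 294 Pdcd1 UMIs, 68.2% of 847 Ctla4 UMIs, 61.6% of 2485 Icos UMIs and 54.8% of 294 Tox UMIs. In tumour 2 they held 64.2% of 187 Pdcd1 UMIs, 52.2% of 182 Ctla4 UMIs and 56.1% of 460 Icos UMIs. In tumour 1, with its 17 T barcodes, they held 17.9% of 117 Pdcd1 UMIs, and the 1888 Tyrobp barcodes, at 5.17 CPM, held 58.1%. Havcr2 differed from these. Tyrobp barcodes held 76.3% of its 232 UMIs at 5 months, 96.9% of 1151 in tumour 1 and 90.6% of 466 in tumour 2. Lag3 was divided, with 46.6%, 94.5% and 27.4% of its UMIs in Tyrobp barcodes and 34.2%, 0.275% and 51.3% in T barcodes. At 5 months neither class held most of the ligand UMIs, with 24.6% of Cd274, 45.2% of Pdcd1lg2 and 27.6% of Lgals9 in T barcodes and 34.6%, 17.0% and 27.2% in Tyrobp barcodes. Tigit was almost undetected, with 8, 3 and 7 UMIs in whole libraries.

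**Figure D1:**
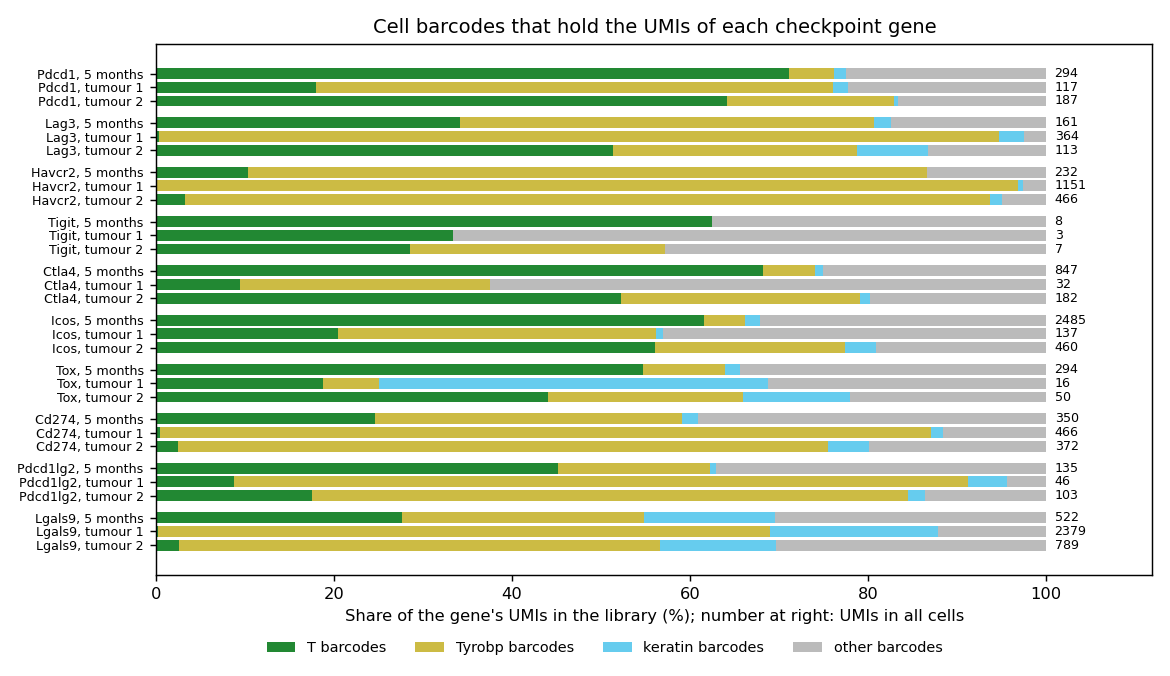
Share of the UMIs of each checkpoint gene (x axis, %) that lie in T, Tyrobp, keratin and other barcodes of the 5 months, tumour 1 and tumour 2 libraries, 1 bar per gene and library; barcodes in more than 1 class are counted as T first, and the number at the right is the gene's UMIs in all cells of the library. Havcr2 UMIs lie mainly in Tyrobp barcodes (76.3%, 96.9% and 90.6%), and Icos UMIs mainly in T barcodes at 5 months and in tumour 2 (61.6% and 56.1%).

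Part of the receptor RNA outside the 3 classes lay in barcodes with other T cell genes. At 5 months, 356 of 2038 unclassed barcodes held Icos, and 231 of those 356 held Cd3g, another chain of the T cell receptor complex. In tumour 1, 12 of 235 unclassed barcodes held Pdcd1, and 11 of the 12 held Cd3g. For this reason a wider T definition (at least 2 UMIs of Cd3d, Cd3e and Cd3g together) was added, which gave 1871, 34 and 164 T barcodes.

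The first comparison asked whether receptors differed in T barcodes between the tumours and the premalignant gland. Pdcd1 stood higher in both tumours. Its level was 56.4 CPM at 5 months (49.0 to 64.5), 214.2 CPM in tumour 1 (133 to 327) and 221.8 CPM in tumour 2 (184 to 265). The tumours lay close to each other, and neither of their intervals overlapped that of 5 months. The mean of the tumours was 218 ± 5.35 CPM (SD, n = 2), the log2 fold change was 1.83 ± 0.70 (SE), and the adjusted p was 0.564 (edgeR quasi-likelihood test, unadjusted p = 0.00903), so the difference was not called. In this comparison edgeR called 0 of the 9 tested genes of the set, beside 0.58% of the 6556 genes tested. Pdcd1 and Lag3 had an unadjusted p under 0.05, and DESeq2 also called 0 of the 9.

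**Figure D2:**
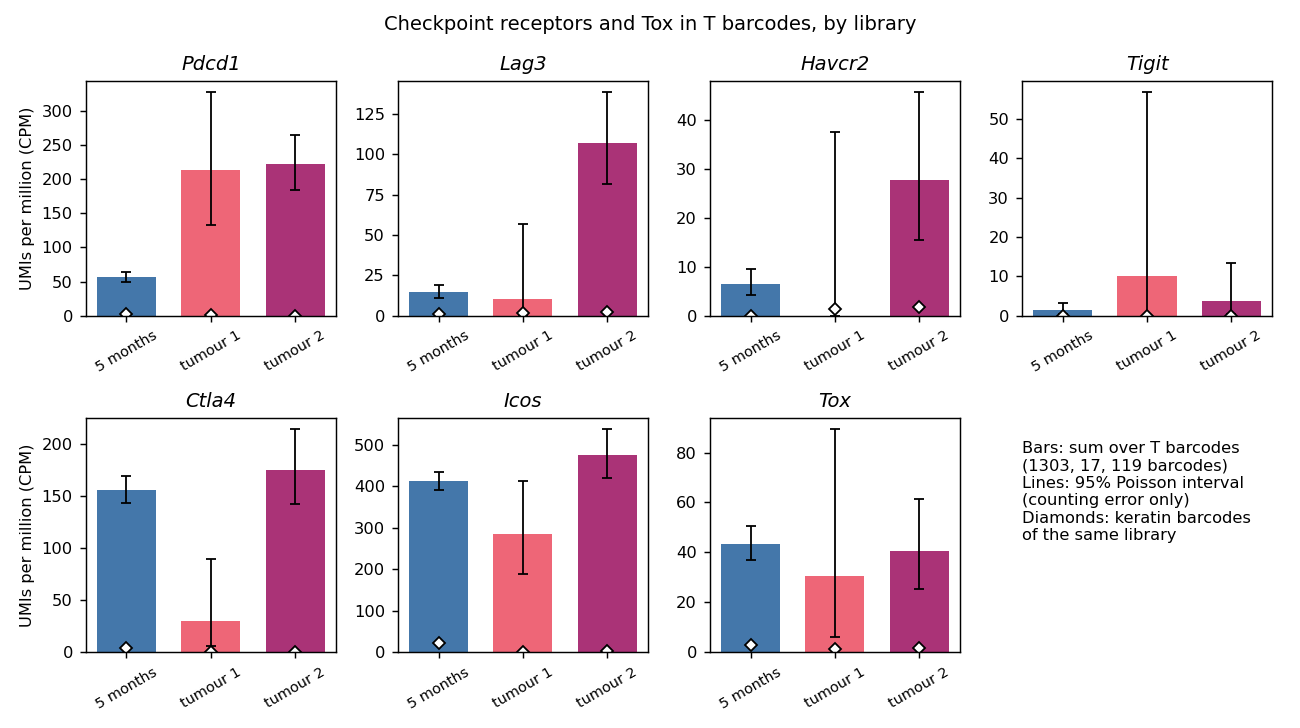
Level (y axis, CPM) of the 6 receptor genes and Tox summed over the T barcodes of the 5 months, tumour 1 and tumour 2 libraries (x axis), with 95% Poisson intervals; diamonds give keratin barcodes of the same library. Pdcd1 is at 214.2 and 221.8 CPM in the tumours against 56.4 CPM at 5 months, while Icos and Ctla4 have no common direction in the tumours.

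The share of T barcodes with a Pdcd1 UMI was 9.67% at 5 months (126 of 1303), 58.8% in tumour 1 (10 of 17) and 37.8% in tumour 2 (45 of 119). T barcodes were deeper in the tumours, with medians of 4986 and 3572 UMIs against 2045. After each barcode was thinned to 1000 UMIs, with none left out, the share at 5 months was 5.07% (3.94 to 6.40, exact binomial interval). It was 23.5% in tumour 1 (4 of 17, 6.81 to 49.9) and 14.3% in tumour 2 (8.55 to 21.9). Keratin barcodes, which should lack the gene, held Pdcd1 in 1.11%, 0.580% and 0.256% before thinning, at medians of 4645, 14139 and 8207 UMIs. The Pdcd1 shares in T barcodes were thus far above that background in each library. With the wider T definition the levels were 51.6, 257 and 194.3 CPM.

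Ctla4 had 155.9 CPM at 5 months (578 UMIs), 30.6 CPM in tumour 1 (3 UMIs) and 175.6 CPM in tumour 2 (95 UMIs). The tumours lay on either side of the premalignant library, and the log2 fold change was -0.48 ± 0.64 (SE, edgeR adjusted p = 1.00). The low value of tumour 1 rests on 17 barcodes, and with the wider definition it was 97.9 CPM from 34 barcodes. Of the 16 UMIs behind this wider value, 7 were in 1 barcode, and it was 55.1 CPM without that barcode. Icos had 412.6, 285.7 and 476.9 CPM, again with 1 tumour below and 1 above 5 months, and a log2 fold change of -0.19 ± 0.64 (edgeR adjusted p = 1.00). After thinning, 24.6%, 29.4% and 30.3% of T barcodes held an Icos UMI. Tox had 43.4, 30.6 and 40.7 CPM, with 3 and 22 UMIs in the tumours. The premalignant value lay within the counting interval of each tumour, which was wide in tumour 1 (6.31 to 89.4 CPM).

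Lag3 had 14.8 CPM at 5 months (55 UMIs), 10.2 CPM in tumour 1 (1 UMI) and 107.2 CPM in tumour 2 (58 UMIs). A single barcode held 38 of the 58 UMIs of tumour 2, and without it the level was 37.0 CPM (10 barcodes had any Lag3). The log2 fold change was 2.21 ± 0.72 (edgeR adjusted p = 0.241), and 0.96 (adjusted p = 1.00) when the barcode with the most UMIs was left out of each library. Havcr2 had 6.47 CPM at 5 months, 27.7 CPM in tumour 2 and 0 UMIs in the 17 barcodes of tumour 1, where 3 UMIs would amount to 30.6 CPM. Tigit had 5, 1 and 2 UMIs in T barcodes and was not tested. The ligands were also detected in T barcodes, with 23.2, 20.4 and 16.6 CPM of Cd274, 16.4, 40.8 and 33.3 CPM of Pdcd1lg2, and 38.8, 51.0 and 37.0 CPM of Lgals9. The Pdcd1lg2 levels, from 61, 4 and 18 UMIs, stood above those of the Tyrobp barcodes of each library given below. That difference was not tested.

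Related genes from lists chosen for the pathway were read in the same fit. At the adjusted threshold, edgeR called none of the 15 tested other co-inhibitory and co-stimulatory receptors, with a median log2 fold change of 0.29 beside 0.02 over all genes tested. None of the 12 tested regulators of exhaustion and memory was called (median 0.11), nor were any of the 10 genes of the interferon gamma and PD-L1 regulation list (median -0.34) or the 5 of inhibitory receptor signalling (median -0.41). Among marker lists, C1qa (log2 4.21, adjusted p = 0.000237) and C1qb (4.86, adjusted p = 0.000274) of macrophages and S100a8 (3.53) and S100a9 (3.29) of neutrophils were called higher in tumour T barcodes, and Gzma was called lower. Without the T barcodes that also held keratins or Tyrobp, 0 of 6040 genes were called.

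Cd8a and Cd4 mark the cytotoxic and helper lineages of T cells. Cd8a was found without Cd4 in 155 T barcodes at 5 months, 8 in tumour 1 and 24 in tumour 2, and Cd4 without Cd8a in 127, 0 and 17. A further 1012, 9 and 78 T barcodes held neither, so the split describes the minority in which either RNA was captured. The second comparison, with the library as a block, used 5 months and tumour 2, since tumour 1 held no Cd4-positive barcode. Ctla4, Icos and Lag3 were called lower in Cd8a-positive barcodes, which is 3 of the 6 tested genes of the set (Havcr2, Tigit, Cd274 and Pdcd1lg2 had too few counts), beside 2.78% of the 3489 genes tested (1.43% lower). Of all calls 48.5% were higher in Cd8a-positive barcodes, and 31.7% with scaling by library size alone, which shifted the median of all genes by -0.18 on the log2 scale.

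Ctla4 had 55.8 CPM in Cd8a-positive and 291.5 CPM in Cd4-positive barcodes at 5 months, and 73.9 against 332.0 CPM in tumour 2. The classes did not overlap, and both libraries moved the same way by a similar factor (0.192 and 0.222 of the Cd4 level). The log2 fold change was -2.13 ± 0.32 (SE, edgeR adjusted p = 9.14e-09). Icos had 185.4 against 580.8 CPM at 5 months and 212.4 against 835.0 CPM in tumour 2, with a log2 fold change of -1.58 ± 0.30 (edgeR adjusted p = 1.64e-05). In tumour 1, the 8 Cd8a-positive barcodes had 20.7 CPM of Ctla4 from 1 UMI and 206.7 CPM of Icos. With DESeq2 neither call held (adjusted p = 0.353 for Ctla4 and 0.202 for Icos, where the alternatives ranged from 1.51e-11 to 0.353 and from 1.81e-06 to 0.202). The spread behind these tests was estimated largely over all tested genes, from 2 libraries with 1 residual degree of freedom.

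**Figure D3:**
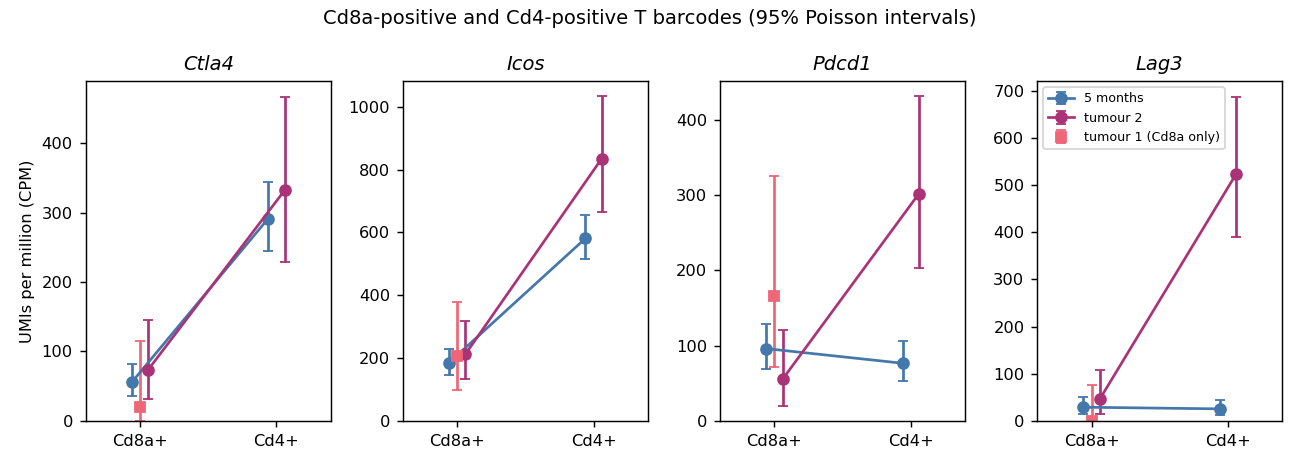
Levels (y axis, CPM) of Ctla4, Icos, Pdcd1 and Lag3 in Cd8a-positive and Cd4-positive T barcodes (x axis), with 1 line per library and 95% Poisson intervals; tumour 1 has Cd8a-positive barcodes only. Ctla4 and Icos rise from Cd8a-positive to Cd4-positive barcodes in both libraries, while Pdcd1 and Lag3 rise in tumour 2 and are near level at 5 months (96.0 and 76.6 CPM for Pdcd1).

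Pdcd1 and Lag3 did not show the same order in both libraries. Pdcd1 had 96.0 CPM in Cd8a-positive barcodes (69.5 to 129) and 76.6 CPM in Cd4-positive barcodes (53.6 to 106) at 5 months. In tumour 2 it had 55.4 CPM (20.3 to 121) and 301.8 CPM (204 to 431), and in the Cd8a-positive barcodes of tumour 1 165.4 CPM (71.4 to 326). After thinning to 1000 UMIs, 11.0% of Cd8a-positive barcodes held Pdcd1 at 5 months, 3 of 8 in tumour 1 and 1 of 24 in tumour 2. Among Cd4-positive barcodes the thinned shares were 4.72% at 5 months and 17.6% in tumour 2. The log2 fold change over both libraries was -0.43 ± 0.36 (edgeR adjusted p = 0.807). Lag3 had 29.0 and 25.5 CPM at 5 months, where 1 barcode held 7 of the 12 Cd4-positive UMIs (10.6 CPM without it), and 46.2 and 523.1 CPM in tumour 2, where the Cd4-positive value was 140.8 CPM without the 1 barcode with 38 UMIs. Its log2 fold change was -1.47 ± 0.44 (edgeR adjusted p = 0.0360), and the call was lost under 5 of the alternatives, among them DESeq2 (adjusted p = 1.00) and the removal of T barcodes that also held keratins or Tyrobp (0.417, where the alternatives ranged from 0.00223 to 1.00). Without the barcode with the most UMIs in each sum, Lag3 had too few counts to be tested. Tox had 26.8 and 57.4 CPM at 5 months and 36.9 and 60.4 CPM in tumour 2 (log2 -0.82 ± 0.54, edgeR adjusted p = 0.684).

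Of 10 tested genes in the list of other co-stimulatory and co-inhibitory receptors, 3 were called lower and 1 higher in Cd8a-positive barcodes (median -0.67). Tnfrsf4, which encodes OX40, had a log2 fold change of -2.44 (edgeR adjusted p = 4.97e-12), Tnfrsf9 (4-1BB) -1.53 and Cd5 -1.41. Klrc1, which encodes the NKG2A receptor, had 4.48 (edgeR adjusted p = 9.71e-11). Among 9 tested regulators, Ikzf2 (-2.16) and Maf (-3.09) were called lower, and Lgals1 (-1.18) was the 1 of 8 tested other ligands called. The 3 regulatory T markers Foxp3 (-3.02), Il2ra (-1.80) and Ikzf2 were called lower in Cd8a-positive barcodes, as Ctla4 and Icos were. From the macrophage or monocyte list, Ly6c2 (3.08), which memory CD8 T cells also express, and Cd14 (1.62) were called higher there, and the summed level of that list was 462.3 against 144.7 CPM at 5 months and 1487 against 714.3 CPM in tumour 2.

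Foxp3, the defining factor of regulatory T cells, was detected in 78 T barcodes at 5 months, 0 in tumour 1 and 19 in tumour 2. Ctla4 had 638.8 CPM (562 to 723) in the 78 Foxp3-positive and 98.9 CPM (88.5 to 110) in the 1225 other T barcodes at 5 months, and 494.9 CPM (375 to 641) against 89.2 CPM (63.2 to 122) in tumour 2. Icos had 843.3 against 361.8 CPM and 850.9 against 375.7 CPM. The intervals of the Foxp3-positive barcodes lay above those of the others in both libraries for both genes. Foxp3-positive barcodes were deeper, with medians of 3850 against 2005 UMIs at 5 months and 4926 against 3533 in tumour 2. No test across libraries was made for this split.

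**Figure D4:**
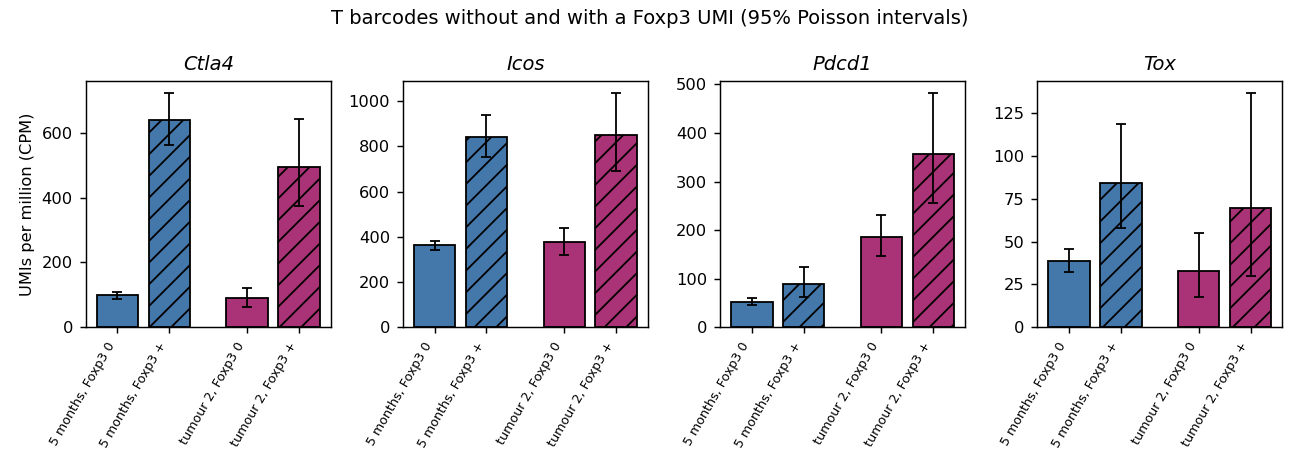
Levels (y axis, CPM) of Ctla4, Icos, Pdcd1 and Tox in T barcodes without and with a Foxp3 UMI (hatched) at 5 months and in tumour 2, with 95% Poisson intervals. Ctla4 is at 638.8 and 494.9 CPM in Foxp3-positive barcodes against 98.9 and 89.2 CPM in the others, and the Tox intervals overlap in tumour 2.

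Pdcd1 had 89.4 CPM (62.3 to 124) in Foxp3-positive and 52.5 CPM (45.0 to 60.9) in other T barcodes at 5 months, and 356.0 against 185.5 CPM in tumour 2. At 5 months 1 barcode held 9 of the 35 Foxp3-positive Pdcd1 UMIs, and the level was 66.4 CPM without it. Among T barcodes without a Foxp3 UMI the level was higher in tumour 2 than at 5 months. None of the 17 T barcodes of tumour 1 (214.2 CPM) had a Foxp3 UMI, but 2 of the 3 regulatory T markers were detected there with 8 UMIs. A barcode without a Foxp3 UMI may still be a regulatory T cell, and the part of these cells in the Pdcd1 levels was not tested. Tox had 84.3 against 38.6 CPM at 5 months and 69.5 against 32.9 CPM in tumour 2. Within Cd4-positive barcodes at 5 months, Foxp3-positive ones were deeper (medians of 5697 against 2533 UMIs), and the shares that follow were not thinned. Ctla4 was found in 15 of 16 Foxp3-positive Cd4-positive barcodes at 5 months and in 6 of 6 in tumour 2. Of the other Cd4-positive barcodes, 34 of 111 and 4 of 11 held it. Lag3 went the other way in the Cd4-positive barcodes of tumour 2, with 3 UMIs in the 6 Foxp3-positive and 49 UMIs in the 11 Foxp3-negative barcodes, of which 38 were in 1 barcode.

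T barcodes with a UMI of the cycling genes Mki67 or Top2a numbered 106 at 5 months (median 6004 UMIs, against 1961 in the rest), 11 in tumour 1 and 18 in tumour 2. Ctla4 had 313.0 CPM (274 to 356) in these at 5 months and 117.2 CPM (105 to 130) in the rest, and Icos 552.2 and 378.3 CPM. In tumour 2 the values were 171.9 and 176.7 CPM for Ctla4 and 474.6 and 477.6 CPM for Icos, so no such difference was seen there. Pdcd1 had 46.5 against 58.8 CPM at 5 months, 301.6 against 57.1 CPM in tumour 1 (19 and 2 UMIs) and 212.8 against 224.4 CPM in tumour 2. In tumour 1, 11 of the 17 T barcodes were in this cycling group, and the part of cycling cells in its Pdcd1 level was not tested.

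Receptors were often found in the same barcode. At 5 months Ctla4 and Icos were both detected in 165 T barcodes, where the product of their shares gives 83.7, and Pdcd1 and Ctla4 in 46 (21.2). In tumour 2 the counts were 31 for Ctla4 and Icos (19.4) and 24 for Pdcd1 and Ctla4 (12.9), and 9 of the 10 barcodes with Lag3 also held Pdcd1 (3.78). At 5 months, barcodes with none of the 7 genes had a median of 1819 UMIs and those with 3 had 3488.5, so depth rose with the number of receptors detected. In tumour 2 these medians were 3406 and 3744 UMIs. Among Cd4-positive barcodes, 26.8% at 5 months and 5.88% in tumour 2 (1 of 17) held none of the 7 genes, beside 55.5% and 45.8% of Cd8a-positive barcodes. These shares were not thinned. At 5 months, Cd4-positive barcodes with none of the genes had a median of 1630 UMIs and those with 2 had 4522. The Cd8a-positive medians were 2112.5 and 2087.5 UMIs, and the part of depth in the shares was not tested.

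The genes with the most similar levels were sought over 11 sums (Cd8a-positive, Cd4-positive, Tyrobp and keratin barcodes of 3 libraries), as Pearson's r of log2(CPM + 10) across 9139 genes. These sums share libraries and depth, and the values are descriptions. Pdcd1 was most like Cxcr6 (r = 0.985), a chemokine receptor gene of tissue T cells, Il27ra (0.967) and Rab19 (0.966). Ctla4 was most like Tnfrsf4 (0.983), Cd5 (0.973) and Icos (0.950), and Icos most like Ikzf3 (0.988), Cd5 (0.982) and Cd6 (0.982). Havcr2 was most like Csf2rb (0.981), the shared beta chain of the GM-CSF receptor, Adam8 (0.975) and Mfsd12 (0.965). Tox was most like Adora2a (0.983), Cers4 (0.973) and Sytl2 (0.969), and Lag3 most like Akna (0.951), Tmem191c (0.939) and Taf9b (0.938). The Lag3 level was highest in the Cd4-positive sum of tumour 2 (523.1 CPM), where 1 barcode held 38 of 52 UMIs. The part of that barcode in the Lag3 values was not tested. For the ligands the leading genes were Ms4a4c (0.954), Fam105a (0.952) and Pik3r5 (0.938) for Cd274, Tmem243 (0.930), H60b (0.921) and Thada (0.908) for Pdcd1lg2, and Brd7 (0.960), Ankfy1 (0.958) and Dgkz (0.937) for Lgals9. The genes most like Tigit (Hist1h2bn, Fam71b and Zfp763) are not interpretable, since Tigit had 4 UMIs in all 11 sums together.

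The next comparison asked whether Tyrobp or keratin barcodes carried more of the ligands. Cd274 was far higher in Tyrobp than in keratin barcodes in each library, with 43.5 against 3.52 CPM at 5 months, 30.7 against 1.11 CPM in tumour 1 and 59.5 against 4.87 CPM in tumour 2. The classes did not overlap, and the log2 fold change was 4.28 ± 0.37 (SE, edgeR adjusted p = 0.000468), higher in 3 of 3 libraries. Pdcd1lg2 had 8.70 against 0.440 CPM, 2.89 against 0.370 CPM and 15.4 against 0.573 CPM (log2 4.31 ± 0.58, edgeR adjusted p = 0.00226). Its keratin values came from 1, 2 and 2 UMIs. T barcodes, which were not part of this comparison, had higher Pdcd1lg2 levels than Tyrobp barcodes in each library, as given above. A total of 8 of the 9 tested genes of the set were called higher in Tyrobp barcodes, beside 30.3% of the 10777 genes tested (16.1% higher), so a call in this comparison is common. Of all calls 53.3% were higher in Tyrobp barcodes, and 36.7% with scaling by library size alone, which shifted the median of all genes by -0.34 on the log2 scale. Tox was not called, and Tigit was not tested. Of the 8, Pdcd1, Lag3, Ctla4, Icos and Lgals9 lost their call when 1 tumour or the other was left out (adjusted p = 0.0535 to 0.213), whereas Cd274, Pdcd1lg2 and Havcr2 were called under every alternative that tested them.

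Lgals9 had a different distribution, being present in both classes. It had 50.9 CPM in Tyrobp and 37.8 CPM in keratin barcodes at 5 months, 124.5 and 83.0 CPM in tumour 1, and 93.2 and 29.5 CPM in tumour 2. The Tyrobp value was higher in 3 of 3 libraries but the ranges of the classes overlapped between libraries. The log2 fold change was 1.20 ± 0.33 (SE, edgeR adjusted p = 0.0341), and the call was lost with scaling by library size alone (0.0801) and without tumour 1 (0.104) or tumour 2 (0.213), where the alternatives ranged from 0.00863 to 0.213.

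**Figure D5:**
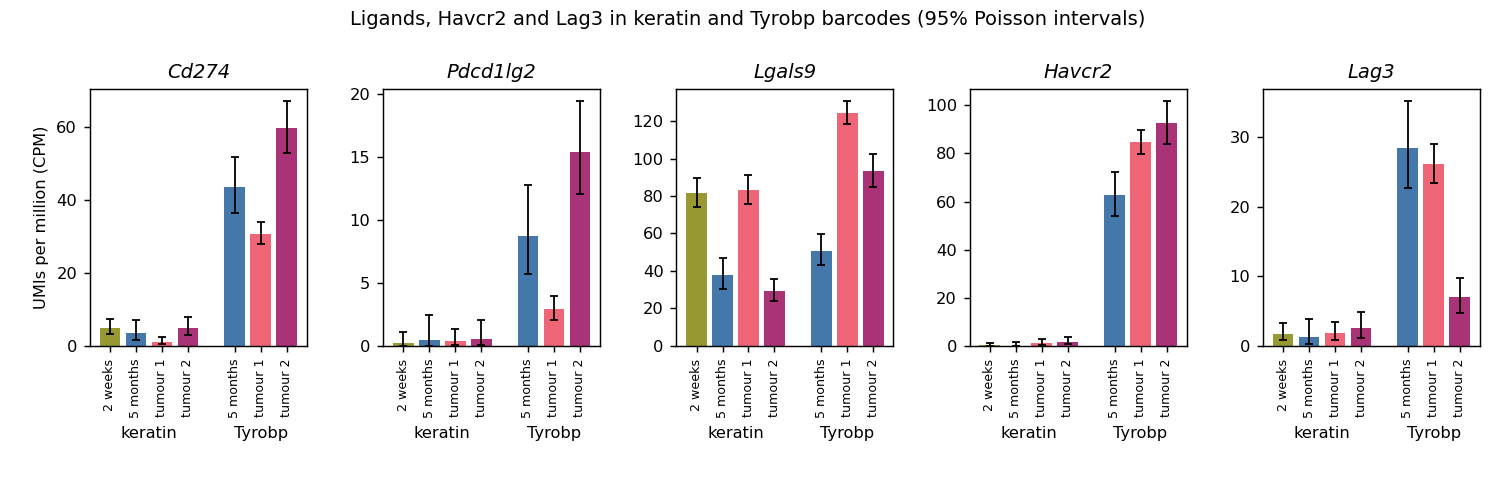
Levels (y axis, CPM) of the 3 ligand genes, Havcr2 and Lag3 in keratin and Tyrobp barcodes of each library (x axis), with 95% Poisson intervals; 2 weeks is shown for keratin barcodes only. Cd274, Pdcd1lg2, Havcr2 and Lag3 are higher in Tyrobp than in keratin barcodes in all 3 libraries with both, while Lgals9 keratin barcodes reach 83.0 CPM in tumour 1 and 81.7 CPM at 2 weeks.

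In keratin barcodes the Lgals9 levels showed no common order by stage, and Cd274 and Pdcd1lg2 had too few UMIs to show one. Lgals9 had 81.7 CPM at 2 weeks (74.2 to 89.9), 37.8 CPM at 5 months (30.3 to 46.7), 83.0 CPM in tumour 1 (75.5 to 91.1) and 29.5 CPM in tumour 2 (24.1 to 35.8). One tumour was near the level of 2 weeks and the other below that of 5 months (mean 56.3 ± 37.9 CPM, SD, n = 2). The log2 fold changes were 0.54 ± 0.67 against 5 months (edgeR adjusted p = 0.940) and -0.42 ± 0.64 against 2 weeks (adjusted p = 0.827). Cd274 had 4.99, 3.52, 1.11 and 4.87 CPM from 26, 8, 6 and 17 UMIs in the same order, and its log2 fold changes were -0.37 ± 1.21 and -0.72 ± 1.11 (edgeR adjusted p = 0.985 and 0.827). Pdcd1lg2 had at most 2 UMIs in any library. None of the 5 tested genes of the set was called in either comparison, beside 2.19% and 6.52% of the 12207 genes tested. Icos against 5 months was the only one with an unadjusted p under 0.05, and DESeq2 called 0 of those it gave an adjusted p.

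The keratin class was narrowed to barcodes with no UMI of Tyrobp, Cd3e or the leukocyte gene Ptprc. Lgals9 then had 81.8, 37.9, 68.2 and 28.4 CPM, and Cd274 had 26, 3, 1 and 9 UMIs, at 2 weeks, 5 months, tumour 1 and tumour 2. Lgals9 thus remained in keratin barcodes without a UMI of Tyrobp, Cd3e or Ptprc. In both versions of the class 2 weeks and tumour 1 lay above 5 months and tumour 2, though in the narrowed class tumour 1 lay below 2 weeks. Keratin barcodes of tumour 1 with Epcam, an epithelial adhesion gene, had 92.1 CPM of Lgals9 and the 44 without it 20.4 CPM, whereas in tumour 2 the values were 27.8 and 51.7 CPM. Icos, a T cell gene, had 23.8 CPM in keratin barcodes at 5 months, where the T marker list summed to 113.9 CPM, against 0.185 and 4.58 CPM in the tumours, where the list summed to 6.5 and 15.2 CPM (log2 -3.50, edgeR adjusted p = 0.0781).

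Pathway genes in the keratin barcodes were mostly not called. Among 18 tested other checkpoint and co-stimulatory ligands, Lgals1 was called higher in the tumours against 5 months (log2 4.52, edgeR adjusted p = 0.00341), and Lgals1 and Nt5e (6.49), which encodes the adenosine-producing enzyme CD73, were called higher against 2 weeks. Of the 5 fibroblast markers, 4 (Col1a1, Col1a2, Col3a1 and Pdgfra) were called higher against 2 weeks (median 7.47) and 0 against 5 months (median 5.76), and their part in these values was not tested. Of the 10 tested genes of the interferon gamma list, edgeR called 0 against 5 months (median -0.67 beside 0.06 over all genes tested). The result of that list against 2 weeks is not reported here. Of 11 tested regulators of exhaustion and memory, 1 was called lower against 5 months and 2 higher against 2 weeks. Cd28 was the 1 of 9 tested other receptors called against 5 months (lower), and 0 were called against 2 weeks. Over all genes tested, 2.19% and 6.52% were called. Macrophage markers C1qa and C1qb and the neutrophil gene S100a9 were called higher in tumour keratin barcodes in both comparisons. The narrowed class above did not screen these genes, and the part of such RNA in the ligand values was not tested.

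Between Tyrobp barcodes of the tumours and of the premalignant gland, edgeR called 0 of the 9 tested genes, as it called 0% of all 11089 genes tested. Of these 11089 genes, 1118 had an unadjusted p under 0.05, and DESeq2 called 154. None of the 9 was among the genes with an unadjusted p under 0.05, and DESeq2 called 0 of the 8 it gave an adjusted p. Lgals9 had 124.5 and 93.2 CPM in the tumours against 50.9 CPM at 5 months, higher in 2 of 2 (log2 1.05 ± 0.40, edgeR adjusted p = 0.498). Havcr2 had 84.8 and 92.5 against 62.6 CPM, also higher in 2 of 2 (0.45 ± 0.35, adjusted p = 0.674). Cd274 lay on both sides of the premalignant value (log2 -0.01 ± 0.52), as did Pdcd1lg2 (-0.03 ± 1.08). The Tyrobp class differed in its makeup, since macrophage or monocyte markers summed to 9937, 24323 and 13412 CPM and neutrophil markers to 2123, 1123 and 29337 CPM.

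Subsets of the Tyrobp barcodes were therefore described by marker genes, with no test. Barcodes with at least 3 UMIs of the complement genes C1qa and C1qb, typical of tissue macrophages, numbered 147 at 5 months, 1774 in tumour 1 and 332 in tumour 2. In these Lgals9 was nearly the same in all libraries, with 121.7 CPM (96.5 to 151), 129.8 CPM (124 to 136) and 118.8 CPM (105 to 133). Havcr2 had 83.7, 86.6 and 108.9 CPM. The Lgals9 intervals of the 3 libraries overlapped within this subset, which held 1774 of 1888 Tyrobp barcodes in tumour 1 and 147 of 750 at 5 months.

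Cd274 and Pdcd1lg2 were lower in C1q barcodes than in several other subsets. Cd274 had 33.5, 28.5 and 43.3 CPM in C1q barcodes and Pdcd1lg2 1.52, 2.02 and 4.12 CPM. In tumour 2, 210 barcodes had at least 10 UMIs of the neutrophil genes S100a8 and S100a9 and few C1q UMIs, with 79.9 CPM of Cd274 (63.6 to 99.2) and 24.4 CPM of Pdcd1lg2 (15.8 to 36.0). The other libraries had 8 and 6 such barcodes. Barcodes with both Ccr7 and Fscn1, genes of mature dendritic cells, had 76.3 CPM of Cd274 at 5 months (24 UMIs in 75 barcodes), 174.9 CPM in tumour 1 (5 UMIs in 5 barcodes) and 113.9 CPM in tumour 2 (6 UMIs in 7 barcodes).

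Havcr2 had 62.6 CPM in Tyrobp barcodes at 5 months and no UMI in keratin barcodes, where 3 UMIs would amount to 1.32 CPM. It had 84.8 against 1.29 CPM in tumour 1 and 92.5 against 1.72 CPM in tumour 2 (log2 6.55 ± 0.51, edgeR adjusted p = 0.000368). It was found in 41.5% of Tyrobp barcodes in tumour 1 and 38.0% in tumour 2, and in 8.42% and 9.29% after thinning to 1000 UMIs, when no keratin barcode held it. Among barcodes with Xcr1 or Clec9a, genes of type 1 conventional dendritic cells, Havcr2 had 105.4 CPM at 5 months (44 UMIs in 64 barcodes) and 203.6 CPM in tumour 1 (21 UMIs in 12 barcodes). In tumour 2 the neutrophil-marked barcodes had 17.5 CPM, below the 108.9 CPM of the C1q barcodes.

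Lag3 in Tyrobp barcodes was 28.4 CPM at 5 months, 26.2 CPM in tumour 1 and 6.95 CPM in tumour 2, against 1.32, 1.85 and 2.58 CPM in keratin barcodes (log2 3.49 ± 0.60, edgeR adjusted p = 0.00556). At 5 months 46 of its 85 UMIs were in the 74 barcodes with Siglech, a marker of plasmacytoid dendritic cells, at 154.2 CPM (113 to 206). A single barcode held 25 of these UMIs, and without it the level was 70.4 CPM in Siglech barcodes and 20.1 CPM in all Tyrobp barcodes. In tumour 1, 243 of the 1774 C1q barcodes held Lag3 (27.5 CPM), and the 21 Siglech barcodes had 5 of the 344 UMIs. In the C1q barcodes of tumour 2 it had 10.7 CPM with an upper bound of 15.7 CPM, below the interval of 24.6 to 30.6 CPM in tumour 1.

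Tyrobp barcodes also held T cell genes, so the class was reduced to barcodes with no UMI of Cd3e, Cd3d, Cd3g, Ncr1 or Klre1 (528, 1861 and 669). Havcr2 (73.1, 85.0 and 95.1 CPM), Lag3 (33.7, 26.3 and 7.03 CPM) and Cd274 (46.5, 30.4 and 60.6 CPM) were as high as before, and their calls against keratin barcodes held (edgeR adjusted p = 0.000367, 0.00564 and 0.000459). Ctla4 went from 19.4, 0.684 and 11.3 CPM to 3.58, 0.464 and 0.728 CPM, and Icos from 48.9, 3.73 and 24.5 CPM to 11.8, 0.927 and 2.42 CPM. The call of Icos was lost (log2 -0.072, adjusted p = 0.947, where the alternatives ranged from 0.000483 to 0.947), and Pdcd1 and Ctla4 then had too few counts to be tested.

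The other pathway genes were read from the same comparison, in which 16.1% of the 10777 genes tested were called higher and 14.2% lower. Of the 19 tested other ligands, 10 were called higher and 4 lower (median 1.31 beside 0.01 over all genes tested). The CD28 and CTLA-4 ligands Cd86 (log2 6.13, edgeR adjusted p = 0.000199) and Cd80 (6.64, adjusted p = 0.000593) were among the 10, as were Cd48 (6.24), Fgl2 (5.48) and Sirpa (4.12). Ceacam1, a ligand of TIM-3 that stands in 2 of the lists, was called lower (-3.47). Of 12 tested other receptors, 10 were called higher and 1 lower, with Cd7, Tnfrsf9, Vsir and Entpd1 among the 10. Of 11 tested regulators of exhaustion and memory, 6 were called higher and 1 lower (median 1.54). Of the 10 tested interferon gamma genes, 7 were called higher and 0 lower, with Irf8 (5.32), the receptor chain gene Ifngr1 (2.58) and Jak2 (1.83) among them. Cmtm6, which stabilises PD-L1 at the cell surface, had a log2 fold change of 1.43 (adjusted p = 0.0150). The phosphatase genes Ptpn6 (3.67) and Inpp5d (4.73) and the kinase gene Csk (2.29) of the inhibitory signalling list were called higher.

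Part of the ligand RNA lay outside the named classes. At 5 months, 116 of the 2038 unclassed barcodes held Cd274, and 72 of the 116 held the B cell gene Cd79a. For Pdcd1lg2 the counts were 49 and 32. In tumour 1, 68 of the 235 unclassed barcodes held Lgals9, and 42 of the 68 held the collagen gene Col1a1, whereas 11 of the 27 with Cd274 held Cd79a. In tumour 2, 136 of 452 held Lgals9, of which 20 held Epcam and 18 Col1a1.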

How the data were processed

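The authors deposited droplet 3' single-cell libraries as UMI counts per gene and barcode. The submitters' processing notes name Cell Ranger and the builds mm10 and GRCm38, without a Cell Ranger version. The depth was 6722044 UMIs at 2 weeks, 15060411 at 5 months, 23736366 in tumour 1 and 13061942 in tumour 2. The 694 genes found only at 5 months (4.59% of its UMIs) were left out. Barcodes needed at least 500 genes and at most 10% mitochondrial UMIs. The highest Scrublet scores (scanpy 1.11.5), 0.8% per 1000 barcodes, were removed as doublets (15, 181, 57 and 25 barcodes), since Scrublet's own threshold marked 4, 0, 0 and 8.

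UMIs were summed per library and class and tested with edgeR 4.0.16 (R 4.3.3; quasi-likelihood test, filterByExpr, TMM), with Benjamini-Hochberg adjustment over all tested genes and calls at 0.05. A fold change compares tumours with 5 months or 2 weeks, or 2 classes with the library as a block. Only the tumours are replicated, so residual degrees of freedom were 1, or 2 between Tyrobp and keratin barcodes. With so few residual degrees of freedom, edgeR estimates the spread largely over all tested genes. A p-value and its SE, taken from the fold change and the F statistic, may therefore say little of the gene's own spread. In T barcodes Pdcd1 and Lag3 had SEs of 0.70 and 0.72, beside SDs of 5.35 and 68.6 CPM between the tumours. The p-values cover only these libraries, which the labels do not tie to separate mice. Intervals are 95% Poisson or exact binomial and cover counting error only. Shares were also taken after thinning to 1000 UMIs.

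The 10 genes and the gene and marker lists were chosen with earlier results of these data known. All 10 genes are named, with the 3 genes most like each of the 10. Called genes of the lists are named in part, from the 6 with the smallest p per list and comparison. One gene of the lists is not reported here. Alternatives were DESeq2 1.42.0, scaling by library size, no filter on low counts, doublets or all barcodes kept, other class thresholds and left-out libraries.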

Additional observations from a re-analysis of the deposited data

Results flagged for a closer look

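For Pdcd1 and Lag3 the order of Cd8a-positive and Cd4-positive T barcodes differed between libraries. The Cd8a-positive level of Pdcd1 was 1.25 times the Cd4-positive level at 5 months and 0.184 times that level in tumour 2. For Lag3 the ratios were 1.14 and 0.0883. Each library was a single sum per class, and the difference between the libraries was not tested. In tumour 2, Pdcd1 rests on 6 and 30 UMIs and Lag3 on 5 and 52 UMIs, of which 38 came from 1 barcode. At 5 months 1 barcode held 7 of the 12 Cd4-positive Lag3 UMIs, with 10.6 CPM without it. For Ctla4 (0.192 and 0.222), Icos (0.319 and 0.254) and Tox (0.467 and 0.612) the ratio was below 1 in both libraries.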

How the results depend on the processing

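Of the alternatives for the fold changes of the 10 genes, 377 kept their side of the threshold or, with no adjusted p, moved by no more than the SE. A further 19 with no adjusted p moved by more, 16 lost a call, 3 gained one and 2 reversed a called direction. The cause was not tested. Uncalled fold changes that changed sign are among the 377, such as Cd274 in keratin barcodes against 5 months (-0.42 to 0.87 over the alternatives). Reversed were Lag3 between Cd8a-positive and Cd4-positive barcodes without tumour 2 (log2 0.28, no test) and Icos between Tyrobp barcodes without T or NK genes and keratin barcodes (-0.072). In T barcodes the tumour comparison called 38 genes, but 9 with DESeq2, 12 with at least 2 Cd3e and 0 Lyz2 UMIs, 0 without keratin or Tyrobp barcodes and 4 with the wider T definition, the last 2 chosen after seeing the data. Between Cd8a-positive and Cd4-positive barcodes 97 genes were called, but 4 with DESeq2, 22 with no filter, 63 with doublets kept and 19 without keratin or Tyrobp barcodes. In keratin barcodes 267 genes were called against 5 months, but 143 with DESeq2, 177 with library size alone, 508 with no filter, 120 with doublets kept, 62 with all barcodes, 69 with overlapping classes and 16 at 10 UMIs. Against 2 weeks 796 were called, but 482 with DESeq2, 505 with doublets kept, 286 with all barcodes, 374 with overlapping classes and 121 at 10 UMIs. In Tyrobp barcodes 0 were called, but 154 with DESeq2 and 810 with no filter, which also called Icos (-1.88) and Tox (-3.15) lower in the tumours; with no filter Icos was called lower in tumour keratin barcodes (-3.46) too. Between Tyrobp and keratin barcodes 3264 genes were called, and 1877 to 3572 when 1 library was left out. Without 1 tumour, or 1 library of the Cd8a and Cd4 pair, the other comparisons have no residual degrees of freedom and give values with no test. No paired analysis was possible because, of the tumours and the earlier libraries, only the tumours carry replicate numbers 1 and 2, so those groups share fewer than 2 numbers; comparisons between classes had the library as a block. In the T barcodes of tumour 1, 3 UMIs amount to 30.6 CPM.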
